A study of Mus musculus with 16 samples.

Results

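Endothelial RNA from embryos with a wild-type Notch1 allele opposite a chimaeric allele (+/12) was compared with RNA from embryos with a wild-type allele opposite a deleted allele (+/−), 3 libraries a group. The libraries were chosen by their genotype labels, and they are 6 of the 16 libraries of the series. The chimaeric allele, called 12, keeps the Notch1 locus but encodes the intracellular domain of Notch2 in place of that of Notch1. Both genotypes are labelled as having normal endothelial development. All 6 libraries come from mouse embryos at embryonic day 9.5, dissociated whole, from which cells bearing CD31, a surface protein of endothelial cells, were taken by flow sorting before RNA was extracted and tagmentation libraries were built. Strain and sex are not given in the labels, and neither is whether a library holds 1 embryo or several, so the spread between libraries may be partly technical. Wild-type embryos (+/+, 3 libraries) and embryos with the 12 allele and no wild-type allele (12/−, 3 libraries) entered the fit and are given beside some values. Embryos with an allele labelled vg entered it too, opposite a wild-type allele (3 libraries) or opposite 12 (1 library). Their values are not given, but the filter, the scaling and the estimate of spread used all 16 libraries. The question is whether a 12 allele differs from no allele when 1 wild-type Notch1 allele is present.

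Notch receptors are membrane proteins that are cut after a ligand on a neighbouring cell binds them. The freed intracellular domain enters the nucleus, joins the DNA-binding protein Rbpj and a Mastermind coactivator, and switches on targets such as the Hes and Hey repressors. In the embryonic vasculature Notch1 and its ligand Dll4 are known for setting arterial identity and for limiting the number of sprouting tip cells.

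No gene passed the test between +/12 and +/− (limma on log2 scaled FPKM, Benjamini-Hochberg adjusted p under 0.05). Of 10550 genes tested, 0 were called (0.00%), and the smallest adjusted p was 0.881. At an unadjusted p under 0.05 there were 506 genes (4.80%), of which 289 (2.74%) were higher and 217 (2.06%) lower in +/12. The alternatives called between 0 and 9 genes, and apart from 1 gene those were short microRNA or small nucleolar RNA loci, described at the end. FPKM scales the fragments of a transcript by its length and by the library's total, so levels below are per length. Differences are +/12 minus +/− on the scale of log2(scaled FPKM + 1), which understates the change of low genes. A p above the threshold does not show that the genotypes are alike, so the 95% interval of a difference is given where a result turns on it. That interval was within 1 log2 unit on both sides for 9129 genes (86.5%), and its median half-width was 0.42.

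The libraries were not equal in depth. The 3 +/12 libraries held 1.11 to 1.80 gigabases of aligned sequence and +/− replicates 1 and 3 held 1.61 and 1.75, but +/− replicate 2 held 0.189. That library also correlated least with the other 5 (Pearson's r across genes 0.867 to 0.897, against 0.909 to 0.932 between the +/12 libraries and +/− replicate 3). The median SD of a gene's log2 level was 0.157 in +/12 and 0.286 in +/−, or 0.175 in +/− without replicate 2. A running number carried by each deposited library was under 300 for all +/12 and 12/− libraries and for +/− replicate 3, and above it for the other 2 +/− libraries and all +/+ libraries. The labels name no batch, and between +/12 and +/+ the number range and the genotype cannot be told apart. Values within the low range rest on 3 +/12 libraries against 1 +/− library, which is assumed to vary like the others. Transcripts of Y-linked genes were listed at 0 in +/− replicate 3 (Eif2s3y, Ddx3y and Kdm5d) and were present in the other 5 libraries, whereas Xist was between 17.2 and 29.7 in all 6. Replicate 3 is the 1 +/− library of the low range, so within that range genotype and the Y-linked zeros cannot be told apart.

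Notch1, the edited gene (chr2:26313422-26359342, mm9), was read at 14.5, 16.1 and 16.1 scaled FPKM in the +/12 libraries and at 16.4, 20.02 and 23.2 in the +/− libraries. All 3 +/12 libraries lay below all 3 +/− libraries. The means were 15.5 ± 0.913 and 19.9 ± 3.40 (SD, n = 3 each), a log2 difference of -0.32 (95% interval -0.64 to -0.01). The unadjusted limma p was 0.043 and the adjusted p 0.881. The wild-type libraries had 23.3, 20.7 and 17.5, so the +/− libraries overlapped them and all +/12 libraries lay below them.

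Notch2 (chr3:97817461-97954290, mm9), the gene that supplies the intracellular domain of the 12 allele, ran the other way. It was read at 3.90, 4.26 and 4.41 in +/12 and at 2.33, 3.42 and 2.25 in +/−. The groups did not overlap here either, as was so for 7.83% of all genes tested, and the wild-type libraries, at 2.68, 3.31 and 2.89, lay below all 3 +/12 libraries. The means were 4.19 ± 0.263 and 2.66 ± 0.652 (SD, n = 3 each), a log2 difference of 0.52 (95% interval 0.20 to 0.83) with an unadjusted p of 0.0036. An exact two-sided permutation test of the 6 libraries gave p = 0.1 for each gene, the smallest that 3 against 3 allow. Transcripts of the 12 allele carry Notch2 sequence in the exchanged part, and a level summed over a gene does not tell alleles or exons apart. Within the low number range the differences were -0.55 for Notch1 and 0.68 for Notch2.

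In the libraries labelled +/− the level of Notch1 was near that of wild type. The +/− minus +/+ difference was -0.05 (95% interval -0.36 to 0.27), against -0.37 (-0.68 to -0.06) for +/12 minus +/+, and neither passed (adjusted p 0.955 and 0.898). Against +/+ no gene was called in either group (0.00%), and at an unadjusted p under 0.05 there were 5.37% of genes for +/12 and 7.51% for +/−. The labels do not name the exons that the deleted allele lacks, so this level does not check that label, and groups are named as labelled throughout. RNA from a sorted pool cannot tell fewer cells of a type from less RNA per cell.

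The other receptors were close in the reported analysis. Notch4, which is largely endothelial, had 9.54, 12.4 and 11.9 in +/12 and 8.64, 10.7 and 14.8 in +/−, with overlapping groups and a difference of 0.01 (-0.44 to 0.47). Notch3, better known from mural cells, was low in both, at 1.37 to 2.39 in +/12 and 1.14 to 1.6 in +/−, with a difference of 0.17 (-0.25 to 0.59). Within the low number range the differences were -0.36 for Notch4 and 0.04 for Notch3. That of Notch4 changed sign in 10 of the 23 alternatives.

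**Figure D1:**
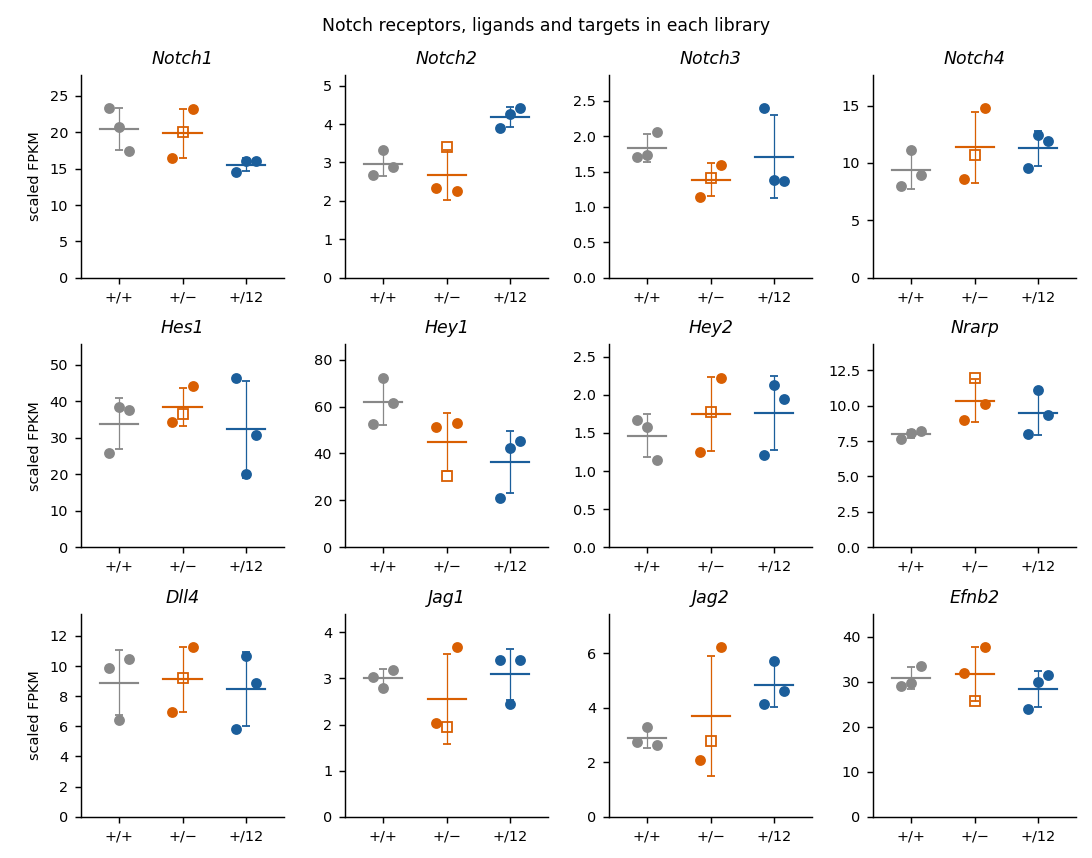
Scaled FPKM (y axis, from 0) of Notch receptors, ligands and targets, each point 1 library of +/+, +/− or +/12 (open square, the shallow +/− replicate 2), horizontal bars the means of 3 and error bars the SD. The Notch1 points of +/12 lie below those of +/−, the Notch2 points lie above, and the points of the target genes overlap between the groups.

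Ligands and the Fringe enzymes that tune ligand choice did not pass either. Of 14 members in the files 10 passed the filter on low values, of which 7 had a positive difference, beside 51.0% of all genes, and the median was 0.22, beside 0.01 for all genes. Within the low number range the median of the list was -0.23. Dll4, the main endothelial ligand, was read at 5.85, 10.7 and 8.87 in +/12 and at 6.92, 9.23 and 11.2 in +/−. These ranges overlapped, with a difference of -0.11 (-0.69 to 0.47). Jag1 was between 2.46 and 3.40 in +/12 and between 1.95 and 3.67 in +/− (0.23, interval -0.17 to 0.62). Jag2 was between 4.15 and 5.71 in +/12 and between 2.10 and 6.21 in +/− (0.40, -0.15 to 0.95). In both Jagged genes the highest +/− library was replicate 3, and within the low number range their differences were -0.20 and -0.32, the opposite sign.

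Dlk1, a ligand-like protein, was the only member of the group whose libraries did not overlap (10% of those tested, beside 7.83% of all genes). It had 1.25, 3.01 and 1.10 in +/12 and 0.692, 0.719 and 1.09 in +/−, so the lowest +/12 and the highest +/− library nearly met (0.55, interval -0.03 to 1.12). Mfng, the most abundant Fringe in these cells, was at 35.3 to 38.8 in +/12 and 21.8 to 44.6 in +/−.

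Enzymes that cut or modify the receptor, and its nuclear partners, had a median difference of 0.02 over 24 tested members of 27. The interval of 23 of the 24 was within 1 log2 unit. Adam10, the sheddase that makes the first cut after ligand binding, was read at 13.4, 11.8 and 13.5 in +/12 and 12.8, 12.7 and 16.4 in +/−. Rbpj was at 6.76, 5.50 and 6.18 in +/12 and 7.99, 7.11 and 6.62 in +/−, which overlapped in +/12 replicate 1 and +/− replicate 3 (-0.21, interval -0.54 to 0.13).

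The coactivator Maml1 and the acetyltransferase Ep300, both parts of the Notch transcription complex, had an unadjusted p under 0.05 in opposite directions. Maml1 had 7.19, 5.34 and 6.76 in +/12 and 7.73, 8.89 and 8.87 in +/−. All +/12 libraries were lower (-0.36, interval -0.68 to -0.04, unadjusted p 0.029). Ep300 had 9.87, 10.7 and 11.7 in +/12 and 7.92, 7.01 and 10.1 in +/− and overlapped (0.35, interval 0.05 to 0.64, unadjusted p 0.024), with a difference of 0.09 within the low number range. The paralogues Maml2 and Maml3 had differences of 0.00 and 0.04. The corepressor Ncor1 was at 14.2, 14.6 and 15.7 in +/12 and 12.2, 13.4 and 13.5 in +/−, without overlap and with a difference of 0.17 (-0.04 to 0.38).

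Targets of Notch signalling gave no called gene and no gene at an unadjusted p under 0.05, beside 0.00% and 4.80% of all genes. Of 26 target genes in the files 19 passed the filter, 7 with a positive and 12 with a negative difference. That is 36.8% positive, beside 51.0% of all genes, and the median was -0.11, beside 0.01 for all genes. The interval of 17 of the 19 was within 1 log2 unit. Averaged over the 19 genes, the log2 level was 3.63, 3.86 and 3.81 in the +/12 libraries and 3.70, 3.80 and 4.08 in the +/− libraries. The groups overlapped, and +/− replicate 3 was the highest. The sign of the median was negative in each of the 23 alternatives, from -0.34 within the low number range to -0.01 without +/12 replicate 1.

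Nrarp, a target that feeds back on the intracellular domain, was read at 8.02, 11.1 and 9.34 in +/12 and at 8.99, 12.0 and 10.1 in +/−, a difference of -0.12 (-0.51 to 0.28). Hes1 spread widely within +/12, with 46.4, 19.9 and 30.9 against 34.3, 36.6 and 44.3 (-0.31, interval -0.88 to 0.26). Hey1 had 21.2, 42.2 and 45.3 in +/12 and 51.1, 30.5 and 52.8 in +/−. The groups overlapped (-0.33, interval -1.02 to 0.35), and without +/12 replicate 1 the difference was 0.01. The wild-type libraries had 52.7, 72.2 and 61.4, and 5 of the 6 libraries lay below the lowest of them. The differences of Hey1 from wild type were -0.82 in +/12 and -0.49 in +/−, with unadjusted p of 0.022 and 0.15, and neither passed adjustment. Hey2 was low in both groups, at 1.22 to 2.13 and 1.25 to 2.22.

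Targets that belong to the arterial programme overlapped as well. Efnb2, the arterial ephrin, had 23.9, 29.9 and 31.5 in +/12 and 32.0, 25.7 and 37.6 in +/− (-0.15, interval -0.63 to 0.34). Gja4 and Gja5, the gap junction proteins of arterial endothelium, had differences of 0.00 (-0.63 to 0.63) and 0.11 (-0.44 to 0.65). For Gja5 the ranges were 24.4 to 47.3 and 24.4 to 43.2, so each group spanned nearly the same interval. Sox17 had 5.63 to 10.0 and 6.70 to 10.5 (-0.07). Unc5b, a netrin receptor that restrains sprouting, and Kcne3, a potassium channel subunit of tip cells, had differences of -0.37 (-1.05 to 0.31) and -0.33 (-0.82 to 0.16). Kcne3 had 16.5, 32.2 and 19.5 in +/12 and 26.2, 25.9 and 30.9 in +/−. Of these 6 libraries 5 were above the highest wild-type library, which had 18.9.

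Of the 7 targets left out by the filter, Hes2, Hes5, Hes7 and Heyl were under 2 scaled FPKM in all 6 libraries. Myc was the only target whose groups did not overlap (5.26% of those tested, beside 7.83% of all genes). It had 27.7 to 29.8 in +/12 and 31.0 to 37.1 in +/−, and its interval, -0.85 to 0.45, held 0. The Myc difference, -0.20, changed sign in 1 alternative, reaching 0.29 once a number-range term entered the fit.

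**Figure D2:**
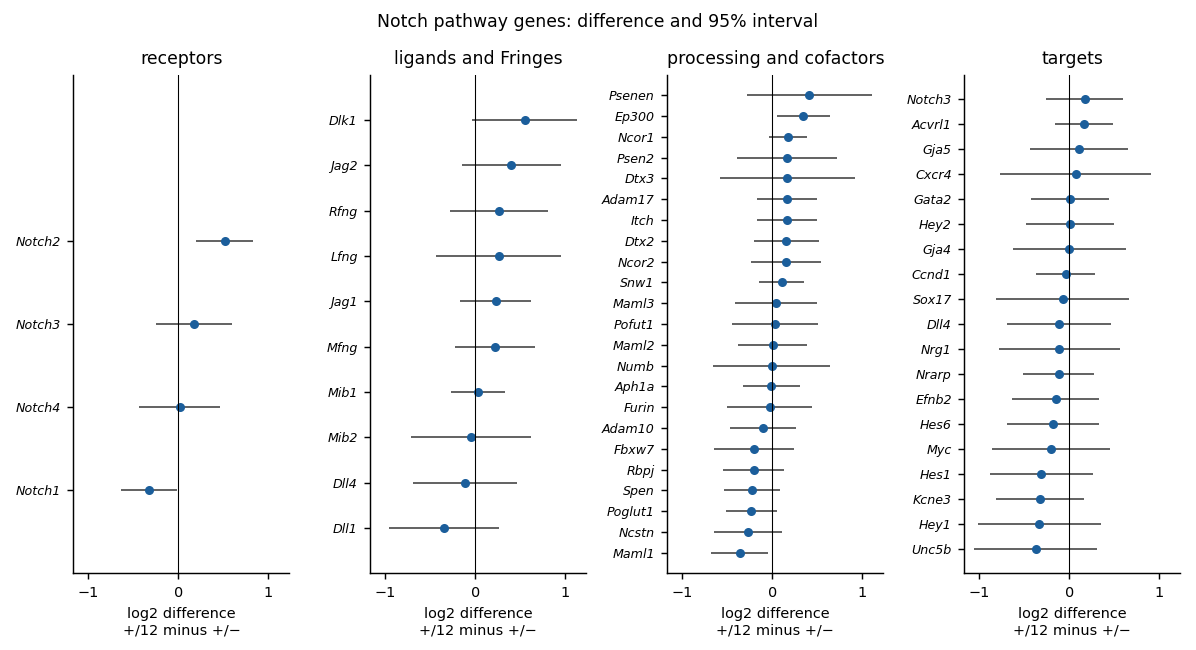
Log2 difference, +/12 minus +/− (x axis), of the genes reported from the 4 Notch lists, points with 95% intervals from limma. The intervals of Notch1, Notch2, Maml1 and Ep300 leave out 0, and those of all 19 targets hold it.

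No pan-endothelial gene passed the test. All 28 pan-endothelial genes in the files were tested, with a median difference of -0.06, and for 27 of them the interval was within 1 log2 unit. Pecam1, which encodes the sorted protein CD31, was read at 61.8, 54.1 and 53.7 in +/12 and at 49.5, 65.3 and 71.9 in +/−. Cdh5 (VE-cadherin) was at 155 to 194 and 149 to 221, and Kdr, the main VEGF receptor, at 65.1 to 83.0 and 75.2 to 86.8. The groups overlapped for each of these genes. Sox18 had an unadjusted p under 0.05 (-0.55, interval -1.09 to -0.01). It was at 100.3, 110 and 86.2 in +/12 and at 114, 246 and 107 in +/−, so the overlap was narrow, and without the shallow library, which holds the high value, the difference was -0.17.

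Arterial and venous genes gave medians of 0.10 over 20 tested members and -0.01 over 12, with 14 and 6 positive (51.0% of all genes were). Within the low number range the arterial median was -0.27, the opposite sign. No member of either list had an unadjusted p under 0.05, beside 4.80% of all genes. Alox12, also a platelet gene, was at 28.1, 7.92 and 22.3 against 5.34, 6.97 and 17.0 (0.91, interval -0.28 to 2.10), and its difference was 0.02 within the low number range. Aplnr, the venous apelin receptor, was at 125, 104 and 116 in +/12 and 146, 162 and 128 in +/−, without overlap (-0.33, interval -0.72 to 0.05). Nr2f2, the regulator of venous fate, was at 4.35 to 6.57 and 3.34 to 7.90 (0.06), and Ephb4 at 29.8 to 39.9 and 32.2 to 38.4 (-0.04).

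Genes of tip cells and sprouting had a median of -0.02 over 24 members (-0.28 within the low number range), and VEGF ligands and receptors one of 0.04 over 14. Flt4, the VEGF-C receptor, was at 50.8, 65.3 and 53.1 against 61.2, 118 and 58.3 (-0.41, interval -0.93 to 0.11), and without the shallow library, which holds the value of 118, the difference was -0.09. In the BMP and TGF-beta list (22 tested, median 0.11) Tgfbr3, the coreceptor betaglycan, had 12.9, 13.0 and 13.7 in +/12 and 17.1, 17.96 and 16.7 in +/−. These groups did not overlap (-0.36, interval -0.67 to -0.05, unadjusted p 0.025).

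In the endocardial list (22 tested, median 0.02) Hand2, a transcription factor of the developing heart and its inner lining, stood lowest. It was read at 9.06, 7.66 and 8.48 in +/12 and at 10.6, 19.8 and 19.1 in +/−, so all +/12 libraries were lower. The wild-type libraries, at 11.5, 11.5 and 10.4, lay between most of them. The difference was -0.85 (-1.37 to -0.33, unadjusted p 0.0036), and it was -1.10 within the low number range and -0.70 without the shallow library. Against 12/− the differences were -0.53 for 12/− minus +/12 (adjusted p 0.934) and -1.38 for 12/− minus +/− (adjusted p 0.021). These comparisons share libraries with each other and with +/12 against +/−. Within the low number range the medians of the BMP, endocardial and flow-responsive lists were -0.18, -0.26 and -0.17. Flow-responsive genes had a median of 0.05 over 16 members, and Klf2, the shear-induced factor, ran from 27.9 to 55.2 in +/12 and from 20.5 to 50.4 in +/−.

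Hypoxia and glycolysis genes were positive in 26 of 36 tested (72.2%, beside 51.0% of all genes). Their median was 0.12 (-0.01 without scaling, where the median of all genes was -0.12). At an unadjusted p under 0.05 there was 1 gene (2.78%, beside 4.80% of all genes). Slc2a3, a glucose transporter, was that gene, at 42.8, 74.5 and 37.8 in +/12 and 25.1, 43.6 and 23.3 in +/−. The groups overlapped in the range from 37.8 to 43.6 (0.73, interval 0.07 to 1.38). Eno1 was at 74.7 to 123 and 42.4 to 92.9 (0.57, interval -0.01 to 1.15), and Ddit4 at 1.52 to 3.12 and 0 to 2.15 (0.80, -0.05 to 1.65). Without the shallow library these differences were 0.24 and 0.31. Slc2a1, the more abundant glucose transporter, and Ldha, a lactate dehydrogenase subunit, were negative (-0.16 and -0.28). In the 12/− libraries the same 36 genes had a median of 1.01 above +/12 and 1.10 above +/−, where 12 and 22 of them passed the test, beside 0.209% and 0.569% of all genes. Both of those comparisons use the same 12/− libraries.

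Immediate-early genes, which are induced fast and briefly by stimulation, were positive in 14 of 18, with a median of 0.19. At an unadjusted p under 0.05 there were 4 of them, beside 2.74% of all genes that were higher at that p. Fosb was at 37.3, 18.4 and 21.2 in +/12 and 11.4, 7.88 and 18.9 in +/− (0.97, interval 0.17 to 1.77). Egr1 was at 47.9, 21.2 and 24.1 and at 9.70, 12.4 and 25.5 (0.95, interval 0.13 to 1.76). In both the lowest +/12 libraries overlapped +/− replicate 3, and within the low number range the differences were 0.36 and 0.18. Atf3 was at 25.5, 21.1 and 23.7 against 14.4, 7.08 and 19.6 without overlap (0.83, interval 0.10 to 1.57), but its difference was 0.24 within the low number range and 0.45 without the shallow library. Egr3 was at 8.39, 1.36 and 1.40 in +/12 and 0.150, 0 and 0.900 in +/−. No +/12 library reached down to a +/− library, though the high value was that of replicate 1 (1.54, interval 0.36 to 2.71). The median of the list was -0.03 within the low number range.

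Stress genes had a median of 0.04 over 18 members (-0.11 without scaling, where the median of all genes was -0.12). Of them 2 had an unadjusted p under 0.05 and 4 were without overlap (11.1% and 22.2%, beside 4.80% and 7.83% of all genes). Herpud1, a component of the degradation machinery of the endoplasmic reticulum, was at 9.29, 6.25 and 7.58 in +/12 and 3.78, 4.84 and 5.32 in +/− (0.62, interval 0.12 to 1.11). Chac1, a glutathione-degrading enzyme of the same response, was at 3.86, 1.14 and 2.53 against 0.728, 0.675 and 0.878 (0.92, interval 0.20 to 1.64). The targets of p53 had a median of 0.05.

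The list medians of growth and metabolism genes were close to 0. DNA replication and mitosis genes had a median of -0.06, and the intervals of all 28 were within 1 log2 unit. Ccnb1, the mitotic cyclin, was at 19.5, 20.4 and 21.2 against 31.5, 29.6 and 20.5 (-0.38, interval -0.74 to -0.02), and the difference was -0.01 within the low number range. G1 cyclins, Myc and CDK inhibitors had a median of 0.05 over 14, with 10 intervals within 1 log2 unit. Without overlap 1 of them was higher and 2 were lower in +/12 (21.4%, beside 7.83% of all genes). Ccnd2, a G1 cyclin, was at 10.6, 11.4 and 11.7 in +/12 and 12.9, 15.3 and 13.9 in +/−, without overlap (-0.30, interval -0.57 to -0.03). Oxidative phosphorylation genes had a median of 0.01 with all 27 intervals within 1 log2 unit, and cholesterol and fatty acid synthesis genes one of -0.05, with 15 of 21 negative (28.6% positive, beside 51.0% of all genes). Ribosomal protein genes had a median of 0.11 over 28 (-0.04 without scaling, where the median of all genes was -0.12). Of them 2 had an unadjusted p under 0.05, both higher in +/12 (7.14%, beside 4.80% of all genes). Rpl30 was at 155 to 188 in +/12 and at 237, 1387 and 161 in +/−, and the value of 1387 belonged to the shallow library, without which the difference was -0.18 in place of -1.12.

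Basement membrane and matrix genes had a median of -0.02 over 21 (-0.30 within the low number range). Sparcl1, a secreted matrix protein, was at 7.95, 8.72 and 7.75 in +/12 and 4.78, 4.28 and 7.28 in +/− without overlap (0.53, interval 0.10 to 0.96), and the difference was 0.14 within the low number range. Frem1 was at 1.95 to 2.95 and 2.84 to 3.17 (-0.28). Interferon-stimulated genes had a median of -0.10 over 9 (-0.37 within the low number range). Haemogenic genes had one of 0.09 over 12, with Runx1 at 2.19 to 4.49 and 1.62 to 2.36 (0.47, interval -0.15 to 1.10).

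**Figure D3:**
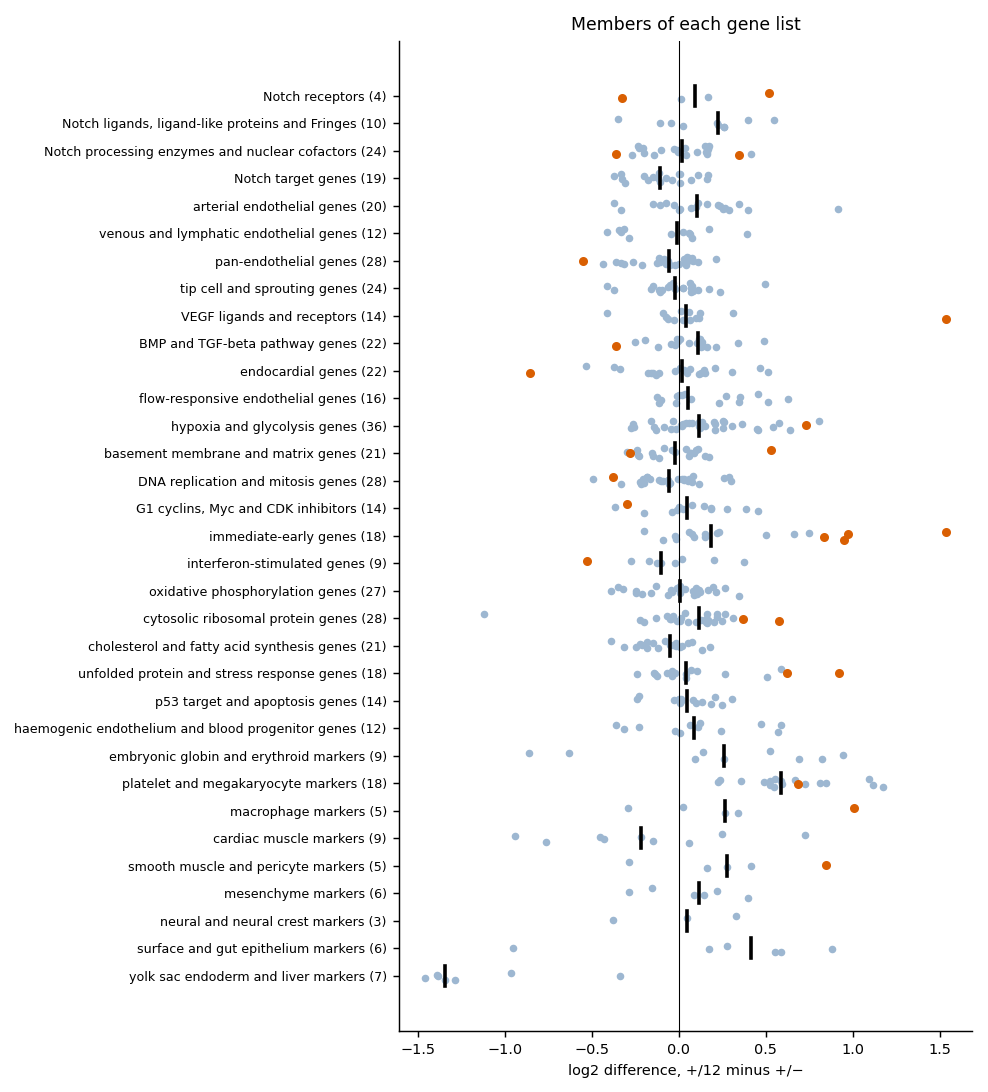
Log2 difference, +/12 minus +/− (x axis), for the tested members of each gene list, each point 1 gene (orange where the unadjusted p is under 0.05) and each black bar the list's median. Medians of the Notch and endothelial lists lie within 0.23 of 0, and the yolk sac endoderm list, at -1.34, stands farthest from it.

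Markers of cells other than endothelium were measured in the same libraries, and their part in the results above was not tested. Platelet and megakaryocyte markers were positive in 18 of 18, with a median of 0.59, but 1 had an unadjusted p under 0.05 and none was free of overlap (5.56% and 0%, beside 4.80% and 7.83% of all genes). Averaged over the 18, the log2 level was 4.66, 3.30 and 4.31 in +/12 and 3.02, 3.21 and 4.08 in +/−. The high libraries were +/12 replicates 1 and 3 and +/− replicate 3, and the median was -0.03 within the low number range. Pf4, the platelet chemokine, was at 1780, 513 and 960.2 in +/12 and 482, 798 and 821 in +/−. The collagen receptor Gp6 was at 11.8, 2.70 and 6.83 against 0.994, 2.45 and 4.54 (1.09, interval -0.15 to 2.34). Macrophage markers passed the filter in 5 of 16 cases (median 0.26), and erythroid markers in 9 of 17 (median 0.26). Epithelial markers had a median of 0.41 over 6 of 15. Their average log2 level was 3.07 in +/12 replicate 2 and 1.06 to 2.17 in the other +/12 and +/− libraries. Mesenchyme markers had a median of 0.12 over 6 of 17, and -0.515 within the low number range. Their average level was 3.27 in +/− replicate 3 and 2.21 to 2.84 in the other +/12 and +/− libraries.

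Yolk sac endoderm and liver markers were negative in 7 of 7 tested, and this came with +/− replicate 2, the shallow library. Their average log2 level was 3.70 in +/− replicate 2, 0.32 and 0.76 in the other +/− libraries and 0.32 to 0.50 in +/12. It was also high, at 2.66, in +/+ replicate 1, which held 1.73 gigabases, beside 0.51 and 0.53 in the other +/+ libraries. A link to depth was not tested. Ttr was at 17.96, Rbp4 at 15.9 and Afp at 9.81 in +/− replicate 2. In the other 5 +/12 and +/− libraries none of these genes was above 0.584. The median of -1.34 became -0.12 without +/− replicate 2. Cardiac markers had a median of -0.21 over 9 of 16 and smooth muscle markers one of 0.28 over 5 of 12, among which the muscle filament gene Des was at 1.44 to 1.81 and 0.119 to 0.960 (0.84, interval 0.11 to 1.57). Neural markers passed the filter in 3 of 17 cases, and Sox2, Pax6, Tubb3 and Sox10 did not pass it.

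**Figure D4:**
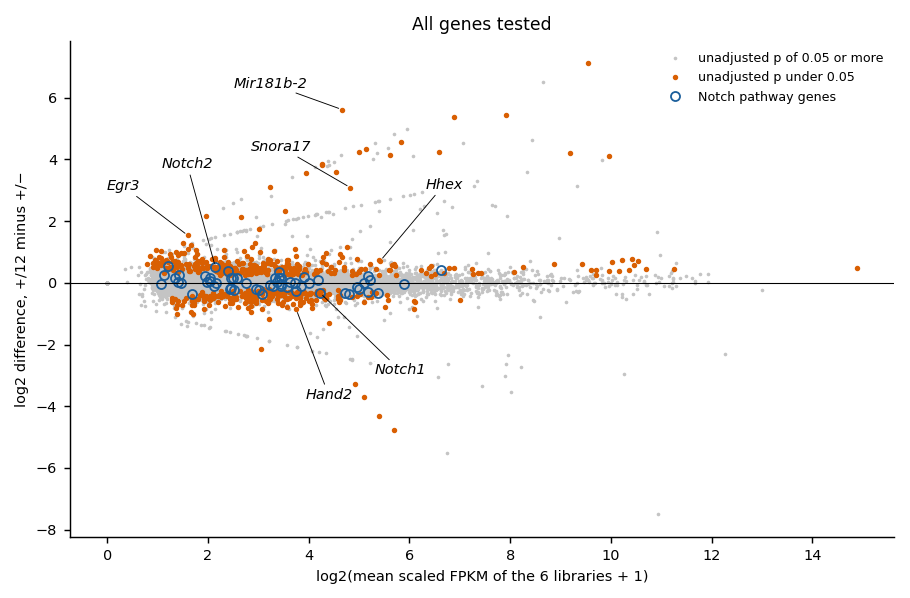
Log2 difference, +/12 minus +/− (y axis), against the mean level of the 6 libraries (x axis, log2 scale) for all 10550 genes tested, 1 point a gene (orange where the unadjusted p is under 0.05, blue rings for Notch pathway genes). No gene was called, and of the 115 genes beyond 2 log2 units 112 have no transcript of 300 nt or more.

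The genes with the smallest unadjusted p among those without overlap did not pass either, and each had an adjusted p of 0.881. Without overlap there were 440 genes higher (4.17%) and 386 lower (3.66%) in +/12. On the higher side, Hhex, a homeobox factor of endothelial and blood progenitors, was at 46.7, 50.0 and 58.5 in +/12 and 32.5, 22.7 and 40.5 in +/−. Wild type, at 30.3 to 38.6, lay below +/12 (0.71, interval 0.30 to 1.13), and the difference was 0.34 within the low number range. H2afj, a histone H2A variant, was at 4.38 to 4.58 in +/12 and 2.23 to 3.22 in +/−. Mrps22, of the mitochondrial ribosome, was at 13.3, 15.5 and 17.2 against 9.98, 8.09 and 11.2, and wild type spanned 11.6 to 14.8. Scpep1, a serine carboxypeptidase, was at 7.51 to 8.74 and 4.49 to 6.00. Rpl23a, of the large ribosomal subunit, was at 2604 to 3048 and 1814 to 2316. Hist2h2bb and Isoc2a, with differences of 1.10 and 1.04, completed the genes of ordinary length on this side.

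On the lower side, Alg14, a subunit of the enzyme that adds the second sugar of the N-glycan precursor, was at 12.4, 10.5 and 12.8 in +/12 and 20.2, 19.2 and 15.8 in +/−. The wild-type libraries, at 9.83 to 12.2, were near +/12 (-0.59, interval -0.88 to -0.30). Mobkl1b, an adaptor of the Hippo kinases, was at 5.48 to 6.41 in +/12 and 8.31 to 11.5 in +/−, with wild type at 5.78 to 7.53. The differences of Alg14 and Mobkl1b from wild type were 0.69 and 0.42 in +/− and 0.10 and -0.17 in +/12. Gmpr, a guanosine monophosphate reductase, was at 9.77 to 11.4 in +/12 and 17.0 to 27.6 in +/−, and wild type spanned 14.2 to 21.1. Rtcd1, an RNA cyclase, was at 22.4 to 24.7 and 28.4 to 34.7. Dcaf5, Adck4 and Tmem180 had differences of -0.53, -0.71 and -1.16, and Hand2 is given above. AA465934, a long noncoding RNA, was at 6.91, 3.01 and 3.22 in +/12 and 66.7, 71.5 and 24.8 in +/−. Wild type covered both ranges, with 3.81, 76.5 and 94.8.

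**Figure D5:**
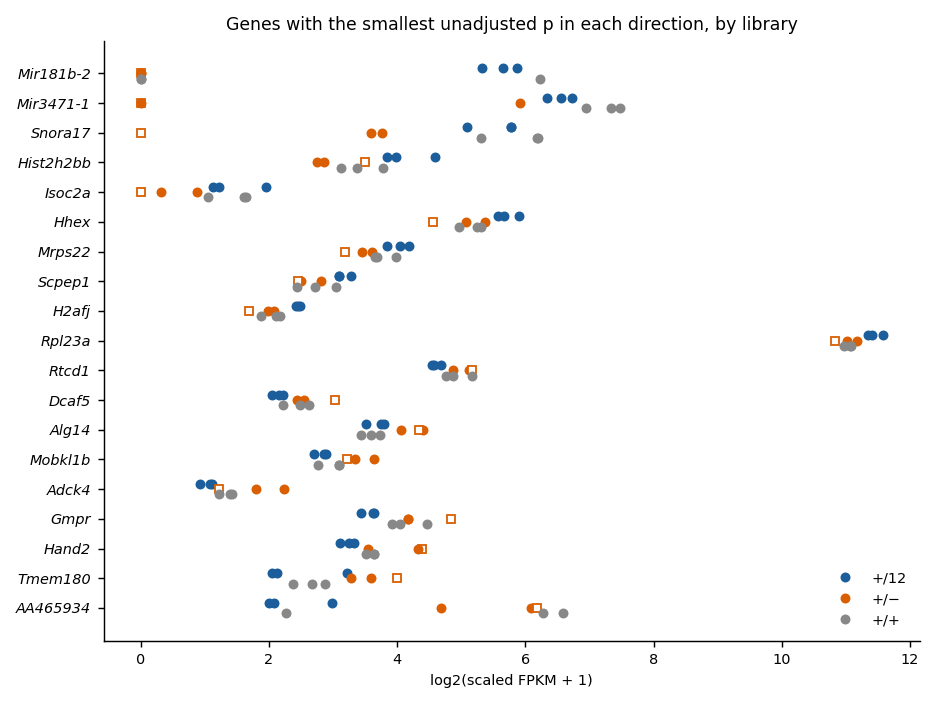
Log2(scaled FPKM + 1) (x axis) in each +/12, +/− and +/+ library (open square, the shallow +/− replicate 2) of the genes reported here among the 10 a side with the smallest unadjusted p whose +/12 and +/− libraries do not overlap. The genes were chosen by that separation, and the wild-type points fall on either side of it or between.

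Large differences were mostly those of very short transcripts. Of 215 genes with a difference above 1 log2 unit in size, 173 (80.5%) have no transcript of 300 nt or more, while 341 such genes were among the 10550 tested. The microRNA locus Mir181b-2 had the smallest p of the genes named on the higher side. It was read at 49.3, 57.7 and 39.0 in +/12 and listed at 0 in all 3 +/− libraries. Wild type was split, with 73.8 in replicate 3 and 0 listed in the other 2. The precursor is 86 nt long in the deposited tables (chr2:38709350-38709435, mm9), and deposited coverage times that length came to 5379, 5369 and 5415 in the 3 +/12 libraries, nearly the same value in libraries of different depth. The neighbouring locus Mir181a-2 was above 0 in +/12 replicate 3 and +/− replicate 1. Mir3471-1 was at 79.5, 92.7 and 105 in +/12 and at 59.1 and 0 in +/−, and Snora17 at 33.1 to 53.6 and 0 to 12.6, with wild type at 38.7 to 72.2. These libraries were not made from size-selected small RNA, so an FPKM here is not a measurement of a mature microRNA. The mature arm and the hairpin of Mir181b-2 are shown because it was the locus called when the 6 libraries were fitted alone. Both are from RefSeq (GRCm38.p6, plus strand), with the seed, bases 2 to 8, in capitals in the first and the mature arm in capitals in the second.
mmu-miR-181b-5p: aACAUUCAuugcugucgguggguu
Mir181b-2 hairpin: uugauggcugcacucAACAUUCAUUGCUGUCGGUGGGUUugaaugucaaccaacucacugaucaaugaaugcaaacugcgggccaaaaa
The hairpin lies at chr2:38853830-38853918 and the mature arm at chr2:38853845-38853868 in that build, which is not the build of the deposited tables.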

How the data were processed

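RNA from CD31-sorted endothelial cells was measured in 16 libraries, of which 3 +/12 and 3 +/− libraries were compared. The submitters' processing notes name TopHat2 2.0.9 and the build mm9. The authors deposited 1 table of transcripts per library. FPKM and coverage (a signal, used for depth only) are as the authors deposited them, in the Cufflinks column layout per the file headers. Not given in the sources used here are the Cufflinks version, the read length and whether strand was kept. Without strand, reads of overlapping antisense genes cannot be told apart.

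FPKM was summed per gene symbol (22096 symbols), and 211 symbols with a failed status were left out. Values were scaled by the median ratio over 8610 genes. The 10550 genes whose FPKM averaged 1 or more across the 16 libraries were tested on log2(scaled FPKM + 1) with limma 3.58.1 in R 4.3.3 (trended eBayes, two-sided, all 16 libraries in 6 groups, 10 residual degrees of freedom), and p was adjusted over all genes by the Benjamini-Hochberg method. Tables were handled with Python 3.11.15 and pandas 2.3.3. The script was tested on simulated data. Aligned depth was estimated from coverage and FPKM and ran from 0.189 to 1.80 gigabases in the 6 libraries. The deposited values hold no counts, so no counting interval is given.

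The libraries, lists and tests were chosen with earlier results of these data known. List medians and counts are given with no list test; over all genes the median was 0.01, and 51.0% of differences were positive. Genes were named by rule: the Notch receptors, Notch list members with a mean of at least 5, up to 4 members of each other list with the smallest unadjusted p, and the 10 genes a direction with the smallest unadjusted p among those without overlap, leaving out predicted genes and pseudogenes. Other genes named (defining markers and further list members, such as Hey2, Pecam1 or Pf4) were added as markers after their values were seen. Members of 34 lists were matched by symbol in 667 of 668 cases. Sequences are from RefSeq tables, and none was read by coordinate. The 23 alternatives covered scaling, pseudocount, filter, spread model, library number, depth, short genes and leaving out each library. A few genes that the rule names are not reported here.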

Additional observations from a re-analysis of the deposited data

How the results depend on the processing

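Of 184 named genes, 123 kept the sign of their difference in all of the 23 alternatives that gave a value, 61 changed sign in at least 1, and 2 (Mir181b-2 and Mir3471-1) were called in any. The alternatives are not independent checks, and part of this count was fixed in advance. Those that change only eBayes leave each difference as it was. Genes named for groups without overlap can hardly change sign when 1 library is left out. The count of called genes was 0 in the reported analysis, 1 with the 2 groups fitted alone (Mir181b-2), 1 with the number range as a covariate (Mir3060) and 9 within the low number range, all of them microRNA or small nucleolar RNA loci. Leaving out 1 library gave 0 to 4 called genes: 2 and 1 when +/12 replicate 1 or 2 was left out, and 4 when +/− replicate 1 was. The Notch2 difference was 0.68 within the low number range, and the Notch1 difference was -0.55 there and -0.47 without scaling, where the median of all genes was -0.12. The cause was not tested. The count at an unadjusted p under 0.05 was 506 (4.80%), and leaving out a +/− library made it 897 (8.50%, replicate 1), 384 (3.64%, the shallow replicate 2) or 1325 (12.6%, replicate 3). It was 837 (7.93%) without scaling, 240 (2.27%) with the number range as a covariate and 294 (2.79%) with the groups fitted alone. Leaving out 1 library kept Notch1 below 0 and Notch2 above 0. Apart from rescaling this was fixed in advance, because the groups do not overlap for either gene. No paired analysis was possible because the labels give these libraries no replicate numbers, and the numbers used here follow the order of deposit. With 3 libraries a group and a median interval half-width of 0.42, smaller differences could not be told from 0 for a typical gene. That interval is for 1 gene and is not adjusted. After adjustment over 10550 genes larger differences did not pass either, such as that of Hand2 at -0.85.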
